A study of Mus musculus with 36 samples.

Results

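AT-3 and E0771 are 2 mouse mammary carcinoma cell lines that are grown in culture and grafted into mice as models of breast cancer. AT-3 was derived from a tumour of a mouse carrying the MMTV-PyMT transgene, and E0771 from a mammary adenocarcinoma of a C57BL/6 mouse. The comparison described here is that of the lines at baseline, E0771 against AT-3, over the 6 of the study's 36 RNA-seq libraries that were labelled as DMSO, the solvent control. Its members were taken by label, 3 libraries of AT-3 and 3 of E0771, and every gene with enough counts in these libraries was tested, which kept 14073 of 32285 mouse genes. Cells of either line had been plated 24 h before DMSO was added and were harvested 24 h after that. Each group is 1 cell line, so the line cannot be told apart from anything else that differed between its cultures. The labels do not say whether the 3 libraries of a line came from separate cultures, and p-values therefore measure only the spread between these libraries.

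Epithelial cells are held together by E-cadherin junctions, desmosomes and tight junctions and carry a cytoskeleton of keratin pairs, whereas mesenchymal cells lack most of these and express vimentin. The repressors Zeb1, Zeb2, Snai1 and Snai2 bind E-box motifs in epithelial genes, and the factors Grhl2, Ehf, Ovol1 and Esrp1 maintain the epithelial programme. In the mammary gland the basal layer expresses Krt5, Krt14 and Trp63, and the luminal layer Krt8, Krt18 and Gata3.

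Library totals, in M (mega) counts, were between 42.4 and 52.6 M in AT-3 and between 34.7 and 41.0 M in E0771. The first principal component held 96.9% of the variance and separated the lines. Log2 levels correlated at 0.989 to 0.991 within AT-3, at 0.993 within E0771 and at 0.662 to 0.671 between the lines, across genes, which are not independent replicates. Mitochondrially encoded transcripts took 0.520% to 0.570% of counts in AT-3 and 0.626% to 0.720% in E0771.

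In edgeR's quasi-likelihood test 11181 of the 14073 genes passed an adjusted p of 0.05, which is 79.5% of those tested. Of these, 5165 (36.7%) were higher in E0771 and 6016 (42.7%) were higher in AT-3. A difference of at least 2-fold was reached by 5439 genes (38.6%), of which 2163 (15.4%) were higher in E0771 and 3276 (23.3%) in AT-3. A difference of at least 16-fold was reached by 2410 genes, 1698 of them higher in AT-3 and 712 higher in E0771. The median log2 fold change over all tested genes was -0.08, and the median of its size was 0.70. Log2 fold changes are E0771 over AT-3, so negative values mean higher in AT-3. Values after ± are approximate standard errors (SE) for log2 fold changes, worked back from the statistic of the quasi-likelihood test. For CPM, the counts per M of the library total, values after ± are standard deviations (SD, n = 3). Where a line had very few counts, as for Epcam, Krt18 and Fn1 in E0771, the approximate SE is smaller than counting error alone. It overstates the precision of such fold changes. With so many genes past the threshold, counts of group members past it are followed by their share of the tested members in brackets, to be read against 36.7% of all tested genes higher in E0771 and 42.7% higher in AT-3.

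The CPM levels of the 6 libraries did not overlap between the lines for 11501 genes (81.7%). The 95% interval of the log2 fold change lay within 1.5-fold of equality for 4197 genes (29.8%). At the other end, 848 genes were silent in E0771, meaning that they had at most 3 counts over its 3 libraries while reaching 1 CPM in every AT-3 library. In the opposite direction 147 genes were silent in AT-3. These are 6.88% and 1.19% of the 12332 genes that reached 1 CPM in every library of a line. The plot of mean levels shows both sets along its axes.

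**Figure D1:**
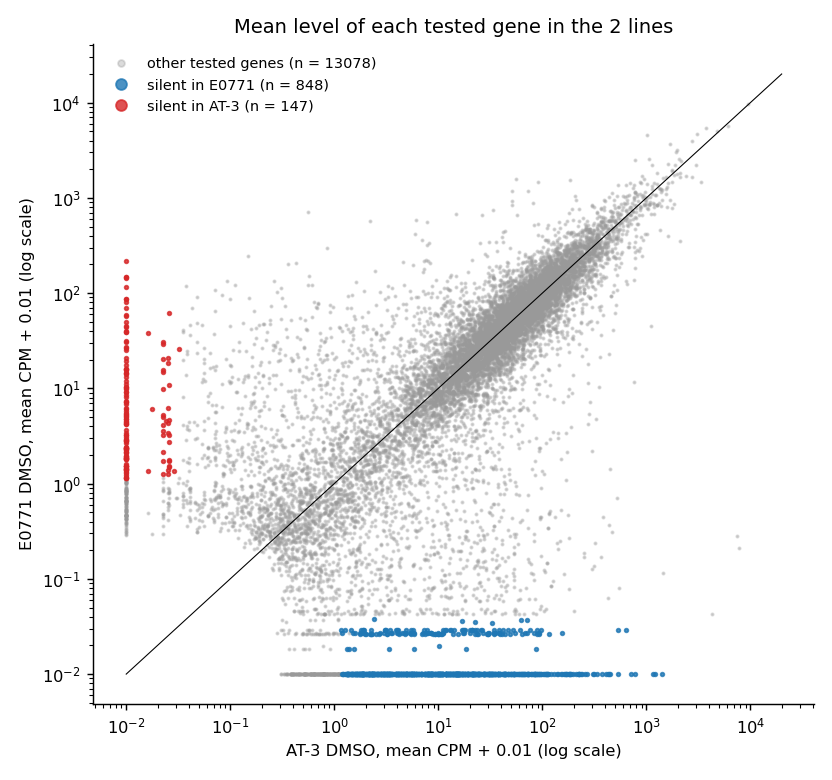
Mean CPM of each tested gene in AT-3 DMSO (x axis, log scale) against E0771 DMSO (y axis, log scale), with 0.01 added so that genes at 0 can be drawn; each point is 1 gene and the line marks equal levels. The 848 genes silent in E0771 lie along the bottom and the 147 silent in AT-3 lie along the left edge.

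Epithelial junction and identity genes were almost uniformly higher in AT-3. Of 40 tested members (of 42 listed), 38 (95%) were higher in AT-3 and 2 (5%) higher in E0771, and all 38 of the former were at least 2-fold higher. The median log2 fold change of the group was -7.75, or -7.64 with genes at 0 counts set to the bound that the counts allow, and 11 members were silent in E0771.

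Cdh1, which encodes E-cadherin (ENSMUSG00000000303, chr8:106603351-106670246 in GRCm38), stood at 431, 474 and 445 CPM in the AT-3 libraries and at 1.80, 1.17 and 1.27 CPM in the E0771 libraries. All AT-3 libraries lay far above all E0771 libraries, with a log2 fold change of -8.30 ± 0.10 (edgeR, adjusted p = 1.3e-16). Epcam, a cell surface adhesion molecule of epithelia, measured 127, 124 and 114 CPM in AT-3 and 0, 0.0509 and 0.173 CPM in E0771, again without overlap, and its log2 fold change was -10.72 ± 0.20 (adjusted p = 3.1e-14). Ehf, an epithelial transcription factor of the ETS family, had 789, 817 and 719 CPM in AT-3 and 0 counts in all 3 E0771 libraries, so it was at least 29718-fold lower in E0771. Esrp1, a splicing factor that sets epithelial exon choice, went from 208, 217 and 204 CPM in AT-3 to 0 counts in E0771 (at least 8038-fold lower). The bounds rest on a floor of 3 counts over the 3 libraries of a line, 0.0261 CPM in E0771 and 0.0216 CPM in AT-3. They cover counting error only and take each count as independent. If both mates of a pair were counted, the bounds are too high and the counting intervals given below too narrow.

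Genes of several kinds of junction were among those not detected in E0771. The desmosomal cadherins Dsg2 (79.9 ± 10.3 CPM in AT-3) and Dsc2 (20.4 ± 1.29 CPM) had 0 counts in E0771, as did the tight junction gene Cldn1 (17.9 ± 0.768 CPM in AT-3), the polarity gene Crb3 (9.23 ± 1.03 CPM) and the trafficking gene Mal2 (86.8 ± 1.90 CPM). Dsp, the desmoplakin that anchors keratin to desmosomes, fell from 345, 532 and 394 CPM in AT-3 to 0, 0.102 and 0.0577 CPM in E0771 (log2 fold change -12.91 ± 0.44). Jup, or plakoglobin, which also serves cadherins outside desmosomes, remained at 69.7, 77.7 and 77.5 CPM in E0771 against 495, 542 and 495 CPM in AT-3, a log2 fold change of -2.77 ± 0.06 (adjusted p = 2.4e-15). The 2 members higher in E0771, named here after their values were seen, were the desmosomal plaque gene Pkp2 (0.54 ± 0.09 in log2, from 22.3 to 32.4 CPM) and the ETS factor Elf3 (1.35 ± 0.49, at under 1 CPM in both lines on average). Without AT-3 library 1, without E0771 library 3 or with a minimum of 1 CPM in 3 libraries, 1 of these calls was lost.

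Keratins showed the same direction with 1 exception. Of 17 keratin genes tested, 16 (94.1%) were higher in AT-3 and 1 (5.88%) in E0771, with a median log2 fold change of -10.54 (-8.47 at the bounds); a further 19 of the 53 listed had 0 counts in both lines. Krt14, the basal type I keratin, measured 1545, 1387 and 1415 CPM in AT-3 and 0, 0.0254 and 0.288 CPM in E0771 (log2 fold change -13.84 ± 0.31, adjusted p = 1.2e-07). Krt5, its basal partner, measured 167, 141 and 150.4 CPM in AT-3 and had 0 counts in E0771 (at least 5866-fold lower). Krt17 had 655, 604 and 633 CPM in AT-3 and 2 counts in all in E0771, a ratio of 36272 (10041 to 299512) by counting interval.

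The exception was Krt8, the type II keratin of simple epithelia (ENSMUSG00000049382, chr15:101996698-102004482, minus strand). It stood at 0.566, 0.274 and 0.209 CPM in AT-3 and at 205, 201 and 201 CPM in E0771, so that all E0771 libraries exceeded all AT-3 libraries, with a log2 fold change of 9.21 ± 0.13 (edgeR, adjusted p = 1.1e-15). Its usual type I partner Krt18 (ENSMUSG00000023043, chr15:102028180-102032027, plus strand), the next keratin gene on chromosome 15, went the opposite way, with 20.6, 23.4 and 20.1 CPM in AT-3 and 0.0975, 0 and 0 CPM in E0771 (log2 fold change -9.15 ± 0.32, adjusted p = 7.9e-13). Krt19, another type I luminal keratin, did not pass the filter, with 59 counts in all in AT-3 and 0 in E0771. The opposed pair was seen in all 5 treated groups of the study as well, where the log2 fold change was between 8.27 and 9.32 for Krt8 and between -13.44 and -8.59 for Krt18.

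The promoters of 4 of these genes are shown because Krt8 and Krt18 lie side by side and moved in opposite directions, while Epcam and Krt5 fell with Krt18. Each is the 250 bases before the RefSeq start (GRCm38.p6), 5′ to 3′ on the strand of the gene, with the motif CACCTG or its reverse complement CAGGTG in capitals; this motif is the E-box form to which Zeb and Snail factors bind. Both strands were searched, and the RefSeq starts of Krt8 and Krt18 lie inside the GENCODE gene bounds given above. The Krt8 motif also lies inside those bounds, whereas the Krt18 motif lies before them.
Epcam (chr17:87635729-87635978, plus strand): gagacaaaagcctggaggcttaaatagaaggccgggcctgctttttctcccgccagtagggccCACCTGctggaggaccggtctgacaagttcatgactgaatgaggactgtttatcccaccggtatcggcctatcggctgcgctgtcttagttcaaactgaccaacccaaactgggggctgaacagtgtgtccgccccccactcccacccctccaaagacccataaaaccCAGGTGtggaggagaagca
Krt5 (chr15:101712906-101713155, minus strand): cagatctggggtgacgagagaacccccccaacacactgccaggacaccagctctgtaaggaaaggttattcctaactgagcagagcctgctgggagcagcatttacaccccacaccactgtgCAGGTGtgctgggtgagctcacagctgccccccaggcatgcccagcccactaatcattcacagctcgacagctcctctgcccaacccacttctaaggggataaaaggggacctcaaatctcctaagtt
Krt8 (chr15:102004343-102004592, minus strand): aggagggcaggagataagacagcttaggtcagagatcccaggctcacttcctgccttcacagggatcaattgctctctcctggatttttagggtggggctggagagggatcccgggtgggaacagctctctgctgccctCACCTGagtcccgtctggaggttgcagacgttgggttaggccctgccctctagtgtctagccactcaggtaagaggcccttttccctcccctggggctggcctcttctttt
Krt18 (chr15:102027966-102028215, plus strand): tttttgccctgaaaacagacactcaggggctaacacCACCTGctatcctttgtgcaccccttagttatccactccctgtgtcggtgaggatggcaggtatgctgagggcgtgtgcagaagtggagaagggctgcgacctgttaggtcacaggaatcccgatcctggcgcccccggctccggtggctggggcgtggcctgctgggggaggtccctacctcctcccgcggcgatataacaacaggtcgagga
The motif occurred 2 times for Epcam and 1 time each for Krt5, Krt8 and Krt18. It was present in 17.2% of the 16428 promoters of the same length. The 4 genes shown were picked, and the share among epithelial or keratin genes was not computed. Krt8, which was higher in E0771, and Krt18, which was lower, each held 1 copy.

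**Figure D2:**
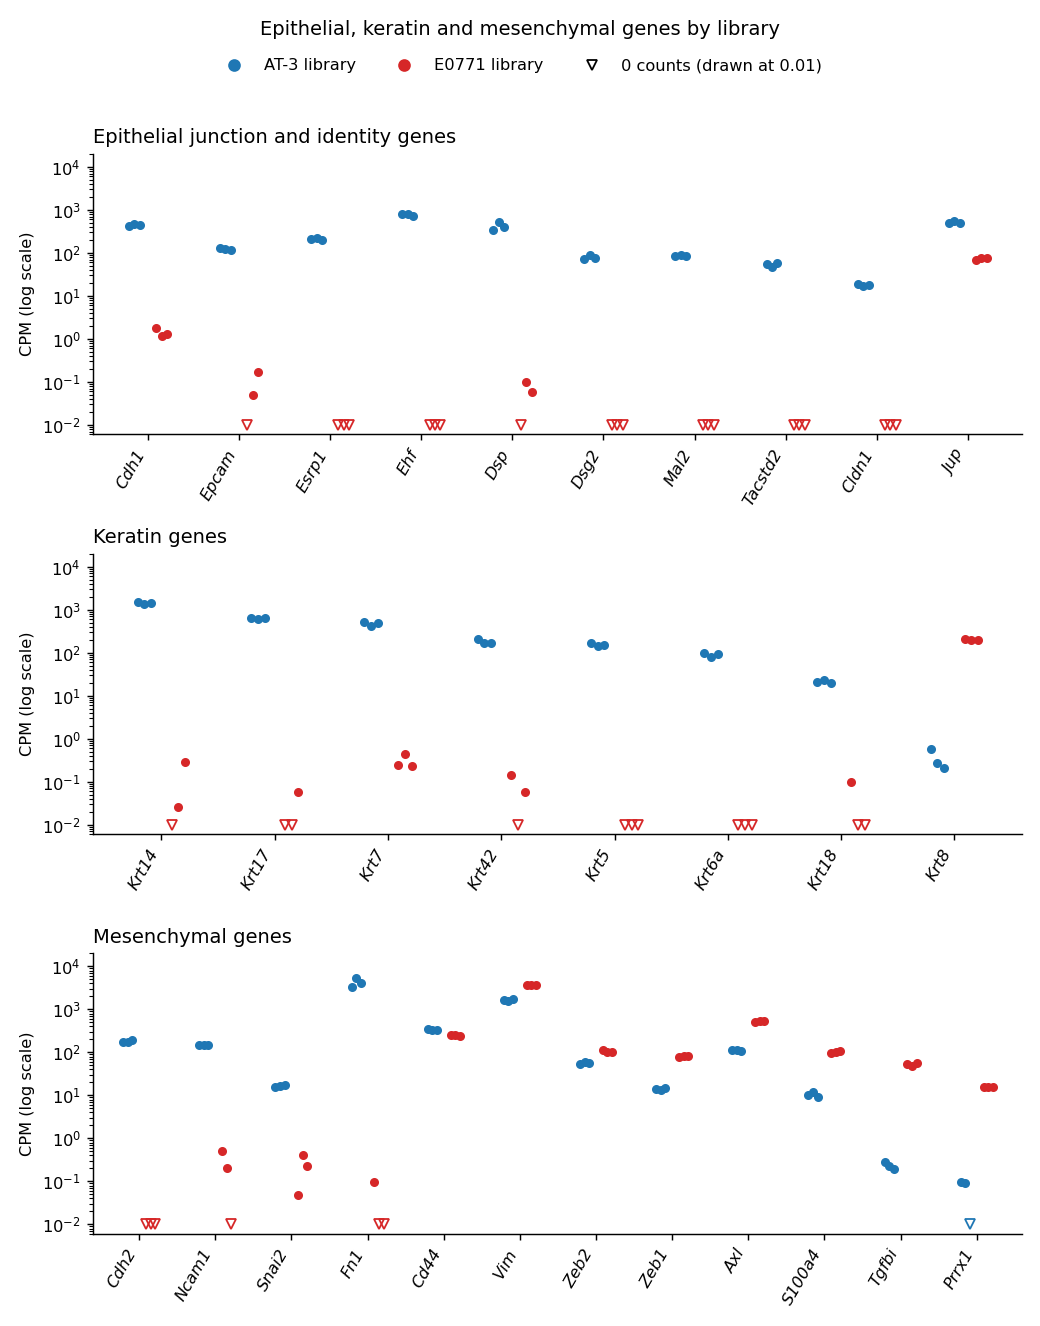
CPM (y axis, log scale) of epithelial, keratin and mesenchymal genes in each library; each filled point is 1 library, AT-3 in blue and E0771 in red, and open triangles drawn at 0.01 stand for 0 counts. Krt8 is the 1 gene of the upper panels with E0771 above AT-3, and the mesenchymal genes run in both directions.

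Mesenchymal genes differed in both directions. Of 22 tested members 12 (54.5%) were higher in E0771 and 10 (45.5%) higher in AT-3, with a median log2 fold change of 0.83, and 4 were silent in E0771. Vim, the vimentin gene, was high in both lines, at 1684, 1578 and 1766 CPM in AT-3 and 3658, 3706 and 3595 CPM in E0771, and its log2 fold change was 1.12 ± 0.05 (adjusted p = 5.7e-12). Zeb1 measured 13.9, 13.4 and 14.6 CPM in AT-3 and 78.5, 81.8 and 83.0 CPM in E0771 (log2 fold change 2.54 ± 0.07, adjusted p = 3.3e-14), without overlap. Zeb2 was also higher in E0771, at 106 ± 4.68 against 56.3 ± 3.92 CPM (log2 fold change 0.91 ± 0.06).

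Among the other members higher in E0771 were the receptor kinase Axl (112 ± 2.38 CPM in AT-3, 518 ± 8.91 in E0771), the matrix protein Tgfbi (0.234 ± 0.0465 and 52.7 ± 3.33 CPM) and the mesenchymal homeobox gene Prrx1 (0.0618 ± 0.0536 and 15.4 ± 0.137 CPM). S100a4 was higher in E0771 too (3.29 ± 0.09 in log2), but 51.7% of its exon bases overlap another gene, so its reads may be split between the genes. In the opposite direction Cdh2, the N-cadherin of mesenchymal and neural cells, stood at 172, 178 and 190.4 CPM in AT-3 and had 0 counts in E0771 (at least 6900.1-fold lower). Snai2, the Slug repressor found in mammary basal cells, fell from 15.7, 16.7 and 17.8 CPM in AT-3 to 0.0488, 0.407 and 0.231 CPM in E0771 (log2 fold change -6.19 ± 0.29). Ncam1, a neural cell adhesion molecule, fell from 148 ± 3.12 to 0.239 ± 0.258 CPM. AT-3 held transcripts of both E-cadherin and N-cadherin, while E0771 held little of the first and no detected transcript of the second.

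Set against the markers chosen for mammary carcinoma (Krt8, Krt18, Krt19, Krt7, Krt5, Krt14, Epcam and Cdh1), AT-3 had 6 of 8 at 1 CPM or more in every library and E0771 had 2 of 8, Krt8 and Cdh1. Of 5 mesenchymal markers AT-3 had 5 and E0771 had 3, with Cdh2 and Fn1 missing. Of 8 defining leukocyte genes, 6 had 0 counts in both lines, among them Ptprc, Cd3e, Adgre1, Itgam and Tyrobp. The lysozyme gene Lyz2 was the 1 of the 8 at 1 CPM or more in every E0771 library (6.00, 4.99 and 5.97 CPM), and 0 of the 8 reached that level in every AT-3 library (0.566, 0.182 and 0.571 CPM for Lyz2). The summed level of all 15 leukocyte markers was 5.06 to 7.07 CPM in AT-3 and 10.9 to 11.8 CPM in E0771.

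Fibroblast markers moved with the line. Of 7 tested members 6 (85.7%) were higher in E0771 and 0 (0%) in AT-3, and the summed level of the list was 109 to 140.2 CPM in AT-3 and 1429 to 1562 CPM in E0771. The largest share came from Col5a1 (50.7 ± 11.1 and 1174 ± 52.9 CPM), followed in E0771 by Pdgfra (12.3 ± 2.19 and 109 ± 8.57 CPM) and Col1a1 (6.42 ± 0.939 and 72.3 ± 6.86 CPM). Dcn, a defining fibroblast proteoglycan, had 6 counts in all in AT-3 and 0 in E0771, and Col1a2 stood at 0.323 and 0.194 CPM. Of the 6 defining fibroblast genes, the remaining 4 reached 1 CPM in every library of both lines. These were Pdgfra, Pdgfrb, Col1a1 and Col3a1, the last at 19.8 CPM in AT-3 and 59.0 CPM in E0771. The summed level of the endothelial list was 13.7 to 16 CPM in AT-3 and 42.8 to 52.8 CPM in E0771, with Emcn at 0 counts in both. Of its 5 tested members 2 (40%) were higher in E0771, 2 (40%) in AT-3 and 1 did not pass. Of 5 defining endothelial genes, 0 reached 1 CPM in every library of either line. Whether other cell types had a part in the differences of matrix and mesenchymal genes was not tested.

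Regulators of mammary lineages followed the epithelial genes. Of 23 tested members, 18 (78.3%) were higher in AT-3 and 3 (13%) in E0771, and the median log2 fold change was -5.50 (-4.51 at the bounds). Kit, the receptor of luminal progenitors, measured 175, 221 and 160.1 CPM in AT-3 and had 0 counts in E0771. Trp63, the p63 gene that defines basal cells, measured 68.9, 70.5 and 76.3 CPM in AT-3, and Gata3, the luminal regulator, 46.8, 53.4 and 53.7 CPM; both had 0 counts in E0771 (at least 2755-fold and 1967-fold lower). AT-3 libraries carried basal and luminal regulators together.

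Id4, an inhibitor of basic helix-loop-helix factors, was at 184 ± 1.25 CPM in AT-3 and at 0 counts in E0771, and so were Tfap2c (30.9 ± 5.61 CPM in AT-3) and the progesterone receptor Pgr (5.63 ± 1.13 CPM). Sox9, a progenitor regulator, was lower in E0771 without being lost, at 112, 101 and 110.4 CPM against 501, 570.0 and 497 CPM in AT-3 (log2 fold change -2.28 ± 0.06, adjusted p = 6.2e-14). The 3 members higher in E0771, named after their values were seen, were Procr, a receptor marking a mammary stem cell population (0.783 CPM in AT-3, 30.8 in E0771, log2 fold change 5.28 ± 0.14), Stat5b (1.0 ± 0.05) and the oestrogen receptor Esr1, which stayed under 1 CPM on average in both lines (0.282 and 0.691 CPM). The count of 3 was 2 with all genes tested, with a minimum of 1 CPM in 3 libraries, and in 5 of the 6 fits with a library left out, all but that without AT-3 library 2. Milk protein transcripts were near the floor: 2 of 9 genes were tested, and the summed level did not exceed 3.70 CPM in any library.

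Ion channels are the subject of the treatments that the study applied, which were NS11021 and BMS204352, openers of the BK potassium channel, KCl, and KCl with either compound. Kcnma1, which encodes the pore of BK, had 21 counts in all in the 3 AT-3 libraries and 4 in the 3 E0771 libraries, and did not pass the filter. Of 88 potassium channel genes, 25 were tested and 25 had 0 counts in both lines. Among the tested, 13 (52%) were higher in AT-3 and 11 (44%) in E0771, 7 were silent in E0771 and 1 in AT-3. The number higher in AT-3 depended on the filter, being 21 with all genes tested and 7 with a minimum of 1 CPM in 3 libraries.

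Several channels were detected in 1 line alone. Kcnk1, a leak channel of the two-pore family, measured 113, 113 and 111 CPM in AT-3 and had 0 counts in E0771 (at least 4299-fold lower). Its relatives Kcnk6 (7.98 ± 1.87 CPM in AT-3) and Kcnk5 (4.55 ± 0.847 CPM), the voltage-gated Kcnd2 (3.35 ± 0.187 CPM) and the inward rectifier Kcnj2 (2.14 ± 0.423 CPM) also had 0 counts in E0771. In the other direction Kcnab2, a beta subunit of voltage-gated channels, had 0 counts in AT-3 and 147, 134 and 152 CPM in E0771 (at least 6675-fold higher). Hcn2, a pacemaker channel, rose from 6.93, 8.17 and 8.14 CPM in AT-3 to 50.2, 54.1 and 48.9 CPM in E0771 (log2 fold change 2.72 ± 0.09, adjusted p = 3.4e-13).

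Kcnn4, the calcium-activated channel KCa3.1, was abundant in both lines, at 84.4, 109.6 and 84.2 CPM in AT-3 and 128, 121 and 124 CPM in E0771. All E0771 libraries lay above all AT-3 libraries, with a log2 fold change of 0.42 ± 0.09 (edgeR, adjusted p = 0.00185). In the treated groups this difference ranged from -1.15 with BMS204352 alone to 0.66 with KCl alone, so its direction was not the same in every treatment. On a scale divided by exon length (TPM, transcripts per M), the level in AT-3 was 185 for Kcnk1 and 67.1 for Kcnn4. In E0771 it was 94.1 TPM for Kcnab2, 88.5 for Kcnn4 and 58.1 for Hcn2.

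Calcium channels, store entry genes and mechanosensitive channels were split evenly, with 17 (40.5%) of 42 tested members higher in E0771, 17 (40.5%) higher in AT-3 and a median log2 fold change of 0.03, near the shares and the median over all tested genes. Trpv4, an osmotically and mechanically gated cation channel, was far higher in AT-3. It stood at 376, 371 and 394 CPM in AT-3 and at 0.488, 0.407 and 0.404 CPM in E0771, and its log2 fold change of -9.76 ± 0.09 (adjusted p = 9.8e-19) compares with -10.31 to -8.40 in the treated groups. Its relative Trpv2 went the other way, from 0.895, 0.502 and 0.761 CPM in AT-3 to 20.4, 21.9 and 19.5 CPM in E0771 (log2 fold change 4.83 ± 0.18). The endosomal channel Tpcn1 and the calcium release receptor Itpr3 were higher in E0771 by 1.89 ± 0.08 and 2.0 ± 0.16 in log2, whereas Saraf, a regulator of store entry, differed by -0.02 ± 0.05 and did not pass (95% interval -0.12 to 0.07).

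Of 29 tested sodium and chloride channel genes 9 (31%) were higher in E0771, 10 (34.5%) in AT-3 and 10 did not pass. Both shares lay below those over all tested genes. The number higher in AT-3 was 17 with all genes tested and 16 in a fit to all 36 libraries. Cftr, a chloride channel of epithelia, fell from 2.43 ± 0.113 CPM in AT-3 to 0 counts in E0771. Ano1, a calcium-activated chloride channel, rose from 22 ± 1.67 to 128 ± 3.60 CPM (log2 fold change 2.54 ± 0.07). Lrrc8e, a subunit of the volume-regulated anion channel, rose from 0.112 ± 0.0567 to 24.7 ± 2.77 CPM (7.71 ± 0.23).

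Of 37 pump and cotransporter genes tested, 16 (43.2%) were higher in E0771 and 16 (43.2%) in AT-3, shares near those over all tested genes. The sodium pump beta subunit Atp1b1 was nearly absent from E0771, with 0.293, 0.153 and 0.231 CPM against 312, 359 and 292 CPM in AT-3 (log2 fold change -10.45 ± 0.14, edgeR, adjusted p = 5.6e-16). Atp1b3, another beta subunit, was at 122 ± 4.60 and 129 ± 3.75 CPM and did not pass (95% interval -0.02 to 0.19). The pump regulators Fxyd2, Fxyd3 and Fxyd6 had 19.4 ± 2.05, 27.6 ± 1.74 and 30.7 ± 2.03 CPM in AT-3 and 0 counts in E0771. Of the exon bases of Fxyd3, 42.5% lie within another gene as well.

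Matrix genes differed in both directions, and more of them differed by at least 2-fold than among all tested genes (38.6%). Collagens had 12 (35.3%) of 34 tested members higher in E0771 and 19 (55.9%) higher in AT-3, and glycoproteins and proteoglycans 12 (33.3%) and 23 (63.9%) of 36. The median log2 fold changes were -1.94 and -2.59. At least 2-fold differences numbered 11 towards E0771 and 18 towards AT-3 for collagens, and 11 and 22 for the glycoproteins and proteoglycans. The summed collagen level ran against the median, at 2708 to 3106 CPM in AT-3 and 6511 to 6898 CPM in E0771.

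Fn1, the fibronectin gene, stood at 3366, 5329 and 4114 CPM in AT-3 and had 4 counts in all in E0771, just outside the rule for silent genes (log2 fold change -16.79 ± 0.49, adjusted p = 3.9e-06). Thbs1, or thrombospondin 1, measured 7616, 6595 and 8952 CPM in AT-3 and 0.341, 0.203 and 0.0577 CPM in E0771 (log2 fold change -15.16 ± 0.31). Col11a1, a fibrillar collagen, measured 1326, 1397 and 1554 CPM in AT-3 and had 0 counts in E0771, at least 54654-fold lower. AT-3 and E0771 libraries did not overlap for any of these genes. Postn, or periostin, with 533 ± 64.6 CPM in AT-3 and 2 counts in E0771, lay just inside the rule, at a ratio of 30666 (8489 to 253221) by counting interval.

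Among the matrix genes higher in E0771 were Col4a1, Col5a1, Col6a1 and Sparc. Col4a1, a basement membrane collagen, rose from 88.8, 102 and 81.2 CPM in AT-3 to 1443, 1450.5 and 1531 CPM in E0771 (log2 fold change 4.02 ± 0.08). Col6a1 rose from 55.9, 66.2 and 44.8 to 1535, 1586 and 1627 CPM (4.83 ± 0.15), and this difference was 1.67 with BMS204352 alone and 4.66 with KCl alone. Sparc, a collagen-binding glycoprotein, rose from 80.4, 79.3 and 60.1 to 1169, 1186 and 1176 CPM (4.01 ± 0.11, adjusted p = 2.1e-09). The X-linked collagen IV genes Col4a5 and Col4a6, by contrast, had 164 ± 3.30 and 21.1 ± 4.83 CPM in AT-3 and 0 counts in E0771.

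Laminin and basement membrane genes had 6 (46.2%) of 13 tested members higher in E0771 and 4 (30.8%) in AT-3, and the laminin beta chains did not move together. Lamb1 and Lamb3 fell from 168 ± 19.9 and 55.4 ± 4.20 CPM in AT-3 to 1.09 ± 0.285 and 0.283 ± 0.259 CPM in E0771, while Lamb2 was at 121 ± 14.6 and 140.4 ± 5.06 CPM (log2 fold change 0.22 ± 0.08, adjusted p = 0.0179), with libraries that overlapped and a call that was lost without AT-3 library 3 or E0771 library 3. Hspg2, or perlecan, rose from 130.3, 278 and 222 to 880.2, 838 and 1136 CPM (log2 fold change 2.18 ± 0.35). Among proteases and inhibitors 22 (47.8%) of 46 were higher in E0771 and 20 (43.5%) in AT-3. Timp3, a matrix-bound metalloprotease inhibitor, measured 1262, 972 and 1273 CPM in AT-3 and had 0 counts in E0771, and Serpine2 went from 223 ± 7.32 CPM to 0 counts. Timp2 (-1.21 ± 0.05) was lower in E0771, and Mmp14 (0.12 ± 0.05, adjusted p = 0.0316) differed little and lost its call in 5 of the 6 fits with a library left out, all but that without AT-3 library 2.

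Integrins, the receptors for these matrix proteins, had 9 (39.1%) of 23 members higher in E0771 and 13 (56.5%) in AT-3. Itgb4, the hemidesmosome chain, fell from 253, 321 and 289 to 7.44, 7.22 and 7.15 CPM (log2 fold change -5.31 ± 0.09), and Itga8 and Itgb8 fell from 121 ± 15.2 and 62.9 ± 2.29 CPM to 0 counts. The common chain Itgb1 was slightly higher in E0771 (0.39 ± 0.04, from 756 ± 28.7 to 993 ± 33.5 CPM).

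**Figure D3:**
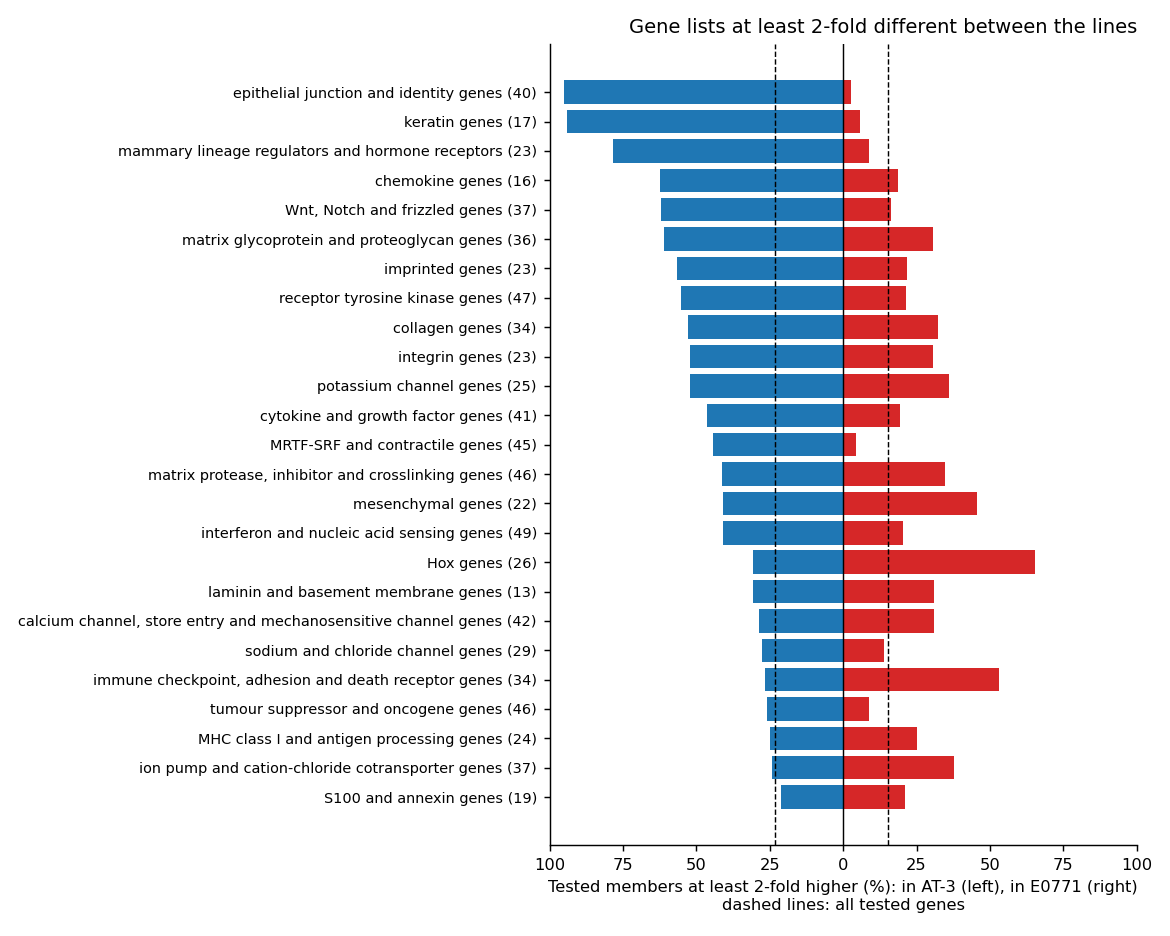
Share of the tested members that were at least 2-fold different with an adjusted p below 0.05, for the gene lists with 13 or more tested members; bars to the left are members higher in AT-3 and bars to the right members higher in E0771, with the number tested in brackets. Dashed lines mark all tested genes, 23.3% to the left and 15.4% to the right; of the lists drawn, epithelial and keratin genes reach furthest left and Hox genes furthest right.

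The series is named for the coactivator MRTFA and its partner SRF, which drive actin and contractile genes. Srf was higher in E0771, at 137, 132 and 139 CPM against 108, 87.6 and 99.6 CPM in AT-3 (log2 fold change 0.47 ± 0.07, adjusted p = 2.3e-05). Mrtfa was lower in E0771, at 57.4, 65.8 and 62.4 against 78.6, 94.0 and 86.2 CPM (-0.48 ± 0.07, adjusted p = 1.8e-05). Groups did not overlap for either gene. Mrtfb differed by -0.17 ± 0.17 and did not pass (adjusted p = 0.38, 95% interval -0.57 to 0.24); without AT-3 library 1 it passed, at -0.33.

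Of 45 tested MRTF-SRF and contractile genes, 27 (60%) were higher in AT-3, 8 (17.8%) in E0771 and 10 did not pass, with a median log2 fold change of -0.72. Acta2, smooth muscle actin, was at 213, 164 and 181 CPM in AT-3 and 86.7, 89.7 and 87.7 CPM in E0771 (log2 fold change -1.08 ± 0.08, adjusted p = 1.6e-07). Myh10, non-muscle myosin IIB, fell from 460.3, 589 and 531 to 0.61, 1.04 and 0.433 CPM (-9.54 ± 0.21). The smooth muscle genes Actg2 and Cnn1 and the MRTF and YAP target Ankrd1 were lower in E0771 as well, with log2 fold changes of -5.77, -5.79 and -3.99. Cavin1, a caveolar coat protein, was the member furthest towards E0771, at 674, 660.4 and 675 CPM against 17.2, 10.5 and 16.5 CPM in AT-3 (5.50 ± 0.21, adjusted p = 4.0e-06). Actb, the general beta-actin, differed by 0.05 ± 0.07 (95% interval -0.10 to 0.21).

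Genes of MHC class I presentation had 10 (41.7%) of 24 members higher in E0771 and 12 (50%) in AT-3, shares near those over all tested genes. Of the classical genes, H2-K1 was at 149, 167 and 148 CPM in AT-3 and 40.4, 40.1 and 40.5 CPM in E0771 (log2 fold change -1.94 ± 0.06), while H2-D1 was at 254, 243 and 234 and 443, 464 and 451 CPM (0.89 ± 0.05). B2m, the shared light chain, was higher in E0771 (0.85 ± 0.05), as were the peptide transporter Tap2 (2.77 ± 0.11) and the transactivator Nlrc5 (1.65 ± 0.572 and 20.8 ± 2.13 CPM, 3.64 ± 0.20). H2-T23, a non-classical class I gene, fell from 22.6 ± 2.52 to 0.126 ± 0.117 CPM. Near-identical class I genes can share reads, so these values carry that uncertainty.

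Class II genes were low in both lines, with a summed level of 4.58 to 6.27 CPM in AT-3 and 19.1 to 20.1 CPM in E0771. Sensors of nucleic acid changed in both directions. Of 49 interferon and sensing genes 28 (57.1%) were higher in AT-3 and 14 (28.6%) in E0771. Tmem173, which encodes STING, rose from 1.37, 1.60 and 1.64 CPM in AT-3 to 57.1, 61.4 and 55.3 CPM in E0771 (log2 fold change 5.23 ± 0.10, adjusted p = 1.1e-15). Aim2, a cytosolic DNA sensor of the inflammasome, rose from 0.283, 0.182 and 0.0761 to 47.5, 47.7 and 43.5 CPM (8.03 ± 0.18). Tlr3, an endosomal RNA sensor, fell from 93.9, 99.8 and 92.2 to 1.95, 2.70 and 2.42 CPM (-5.34 ± 0.10).

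Checkpoint, adhesion and death receptor genes leaned towards E0771, with 21 (61.8%) of 34 tested members higher there and 12 (35.3%) higher in AT-3 (median log2 fold change 1.18). Vsir, the checkpoint ligand VISTA, stood at 0.141, 0.182 and 0.152 CPM in AT-3 and 59.7, 67.9 and 65.3 CPM in E0771 (8.64 ± 0.14, adjusted p = 1.3e-16). Cd40, a costimulatory receptor, had 0 counts in AT-3 and 7.41, 8.72 and 8.07 CPM in E0771 (at least 374-fold higher). Cd24a, a surface antigen of epithelial cells, measured 444, 397 and 399 CPM in AT-3 and had 0 counts in E0771, and Cd200 went from 13.8 ± 1.30 CPM to 0 counts. Ripk3, the kinase of necroptosis, which is no member of a list, had 2 counts in AT-3 and 61.8, 62.9 and 62.6 CPM in E0771, a ratio of 4335 (1200.1 to 35796) by counting interval.

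Most tested genes of secreted immune signals were higher in AT-3. Of 16 tested chemokines 10 (62.5%) were higher in AT-3 and 4 (25%) in E0771, the latter being Ccl2, Ccl7, Ccl25 and Ccl28 (Ccl25 and Ccl28 named after their values were seen). Cxcl12, a stromal chemokine, measured 36.7, 36 and 30.2 CPM in AT-3 and 0, 0.0509 and 0 CPM in E0771. Ccl2, which attracts monocytes, rose from 0.754, 0.684 and 0.533 to 15.9, 15.5 and 16.1 CPM (log2 fold change 4.60 ± 0.17, adjusted p = 1.7e-12). Among cytokines and growth factors 25 (61%) of 41 were higher in AT-3 and 10 (24.4%) in E0771. The summed level of that list ran the other way, at 1581 to 1655 CPM in AT-3 and 1670 to 1721 CPM in E0771. The ligands Bmp2 (21.5 ± 0.195 CPM in AT-3), Tgfa (19.5 ± 2.07 CPM) and Nrg1 (15.4 ± 1.60 CPM) had 0 counts in E0771, and Mif rose from 181 ± 8.81 to 698 ± 20.1 CPM (1.94 ± 0.05).

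Receptor tyrosine kinases had 32 (68.1%) of 47 tested members higher in AT-3 and 13 (27.7%) in E0771. The ephrin receptors Ephb6 (82.7 ± 5.36 CPM in AT-3), Epha3 (32.1 ± 4.8 CPM) and Epha4 (15.2 ± 1.40 CPM) had 0 counts in E0771. Fgfr1 was lower in E0771, at 225, 249 and 230.1 against 554, 583 and 497 CPM (log2 fold change -1.22 ± 0.06), and Ddr1 by -0.26 ± 0.05. Genes of the Wnt and Notch pathways had 26 (70.3%) of 37 members higher in AT-3 and 8 (21.6%) in E0771, with a median log2 fold change of -2.93. The Wnt receptors Fzd7, Fzd8, Fzd1, Fzd3 and Fzd4 had 102, 28.0, 27.7, 19 and 16.1 CPM in AT-3, and each had 0 counts in E0771. Wnt7b was the reverse, at 50.8, 41.0 and 66.1 CPM in AT-3 and 166, 178 and 171 CPM in E0771 (1.70 ± 0.19, adjusted p = 3.8e-04).

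Hox genes, which lie in 4 clusters and record position along the body axis, split by cluster. Of 26 tested, 17 (65.4%) were higher in E0771 and 9 (34.6%) in AT-3. All 9 tested Hoxa genes were higher in AT-3, and all 5 Hoxb, 6 Hoxc and 6 Hoxd genes tested were higher in E0771. Hoxa7 measured 35.1, 37.4 and 34.1 CPM in AT-3 and had 0 counts in E0771 (at least 1363-fold lower). Hoxd9 had 0 counts in AT-3 and 56.6, 62.6 and 56.9 CPM in E0771 (at least 2718-fold higher), and Hoxc10 rose from 0.73, 0.319 and 0.323 to 33.5, 34.0 and 30.7 CPM (log2 fold change 6.18 ± 0.19).

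Within the Hoxa cluster the difference was not uniform. Hoxa4, Hoxa5, Hoxa6 and Hoxa7, a stretch at chr6:52189671-52221854, had 0 counts in E0771. The next gene, Hoxa9 (named with Hoxa10 after their values were seen), kept 0.341, 0.407 and 0.49 CPM there against 16.1, 15.3 and 17.0 CPM in AT-3 (-5.30 ± 0.19). Hoxa10 kept 8.97, 9.46 and 7.15 CPM in E0771 against 15.1, 13.3 and 13.5 CPM in AT-3 (-0.71 ± 0.13, adjusted p = 1.2e-04). Of the exon bases of Hoxd4, 52.3% also belong to another gene.

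**Figure D4:**
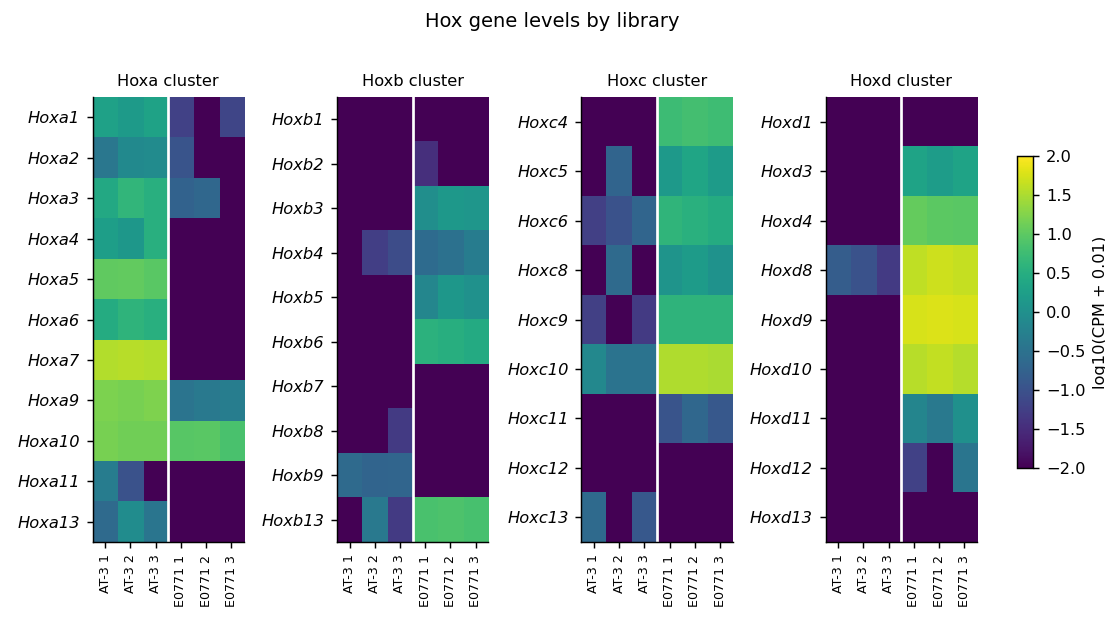
Levels of the Hox genes in each library as log10(CPM + 0.01) (colour scale), 1 panel per cluster with genes in cluster order from top to bottom; columns are the 3 AT-3 and the 3 E0771 libraries, parted by a white line. Of the 39 genes drawn, 26 were tested. The tested Hoxa genes are brighter in AT-3, whereas the tested Hoxb, Hoxc and Hoxd genes are brighter in E0771.

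The silent genes were for the most part protein coding, 817 of 848 in E0771 and 126 of 147 in AT-3, and 697 and 111 of them had 0 counts. Those silent in E0771 had a median of 10.3 CPM in AT-3, and 53 reached 100 CPM there. Those silent in AT-3 had a median of 4.67 CPM in E0771, and 5 reached 100 CPM. App, the amyloid precursor protein gene, measured 1186, 1245 and 1203 CPM in AT-3 and had 0 counts in E0771 (at least 46433-fold lower). Igfbp2 (711 ± 80.7 CPM in AT-3), which binds insulin-like growth factors, and the desmosomal p53 and p63 target Perp (433 ± 27.7 CPM) were likewise at 0 counts in E0771.

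In AT-3 the silent genes with the highest E0771 levels were Crmp1, Kcnab2 and Tex19.1. Crmp1, a cytoskeletal adaptor of neurons, had 0 counts in AT-3 and 223, 219.9 and 209 CPM in E0771 (at least 10062-fold higher). The cadherin Cdh13 (70.1 ± 2.66 CPM in E0771), the growth factor binding protein Igfbp6 (87.0 ± 3.15 CPM) and the steroidogenic nuclear receptor Nr5a1 (50.3 ± 4.14 CPM) also had 0 counts in AT-3.

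Silence was looked up in the treated libraries, 15 per line, which the rule had not used. Of the 848 genes silent in E0771, 554 (65.3%) met the count limit in all 5 treated groups of that line, and 625 in the 3 groups without BMS204352. Of the 147 silent in AT-3, 63 (42.9%) and 83 did. A level of 1 CPM in any treated library was reached by 3 of the 848 (Fxyd2, Tmod2 and, named after its values were seen, Neurl1b) and by 0 of the 147. Of the 5439 genes at least 2-fold different in DMSO, 3983 (73.2%) had the same call in all 5 treatments and 4253 (78.2%) in the 3 without BMS204352.

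Some silent genes were neighbours. Among genes that reached 1 CPM in a line, 37 runs of 3 or more adjacent genes were silent in E0771 and 2 were silent in AT-3. The runs in E0771 held 130 genes and spanned 0.0322 to 5.80 Mb; genes under 1 CPM in both lines may lie between the members. On chromosome 4 (chr4:89274471-93335511) the cell cycle inhibitors Cdkn2a (28.0, 28.0 and 27.2 CPM in AT-3) and Cdkn2b (1.89, 3.10 and 2.66 CPM) and the genes Dmrta1, Elavl2 and Tusc1 were silent in E0771. Mtap, a gene near this run that was chosen for its position, was expressed in both lines, at 113, 91.1 and 108 CPM in AT-3 and 137, 132 and 134 CPM in E0771.

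Krt83, Krt6b, Krt6a, Krt5 and Krt79 formed another run at chr15:101485130-101940324, in the type II keratin cluster that also holds Krt8. Trp63, Gm4524, P3h2 and Cldn1 formed a run at chr16:25683763-26371841, and Cdh2, Dsc2, Dsg3, Dsg2 and B4galt6 another on chromosome 18. The 2 runs silent in AT-3 were Hoxd10, Hoxd9 and Hoxd3os1 on chromosome 2, and Crmp1, Evc and Evc2 on chromosome 5. Evc and Evc2, which encode partners at the base of the cilium, stood at 20.7 ± 1.72 and 44.5 ± 0.773 CPM in E0771.

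Of 46 tumour suppressors and oncogenes tested, 26 (56.5%) were higher in AT-3 and 13 (28.3%) in E0771. At least 2-fold differences numbered 12 towards AT-3 and 4 towards E0771, together 34.8% against 38.6% of all tested genes. Beside Cdkn2a and Cdkn2b, Rb1 was lower in E0771, at 10.6, 11.1 and 8.19 against 50.8, 56.0 and 48.2 CPM (log2 fold change -2.37 ± 0.10), as was Ccnd1, or cyclin D1, at 268, 264 and 276 against 823, 708 and 795 CPM (-1.53 ± 0.06). Myc was higher in E0771, at 556, 564 and 554 against 153, 125 and 152 CPM (1.96 ± 0.07, adjusted p = 2.0e-11). Akt1 differed by 0.05 ± 0.04 and did not pass (95% interval -0.05 to 0.14).

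The X chromosome had the lowest median log2 fold change of any chromosome, -0.74 over 465 tested genes against -0.08 over all genes. It also had the highest share of silent genes, 17.8% in E0771 and 3.52% in AT-3. Over its 251 genes with a mean of at least 5 CPM in both lines the median was -0.45, against 0.03 over all such genes. Computed for each pair of libraries, the median difference in log2 CPM had an SD of 0.03, but the pairs are not independent. Of 10 listed sex chromosome genes 5 were tested, of which 5 (100%) were higher in AT-3, and 4 had 0 counts in both lines. Xist, the RNA that coats the inactive X chromosome, measured 412, 647 and 537 CPM in AT-3 and had 0 counts in E0771. The X-linked genes Kdm6a, Kdm5c, Ddx3x and Eif2s3x were lower in E0771 by -3.53 ± 0.08, -1.53 ± 0.07, -0.71 ± 0.05 and -0.25 ± 0.05 in log2. Chromosome 11 had a median of -0.43 and chromosome 8 of 0.36.

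**Figure D5:**
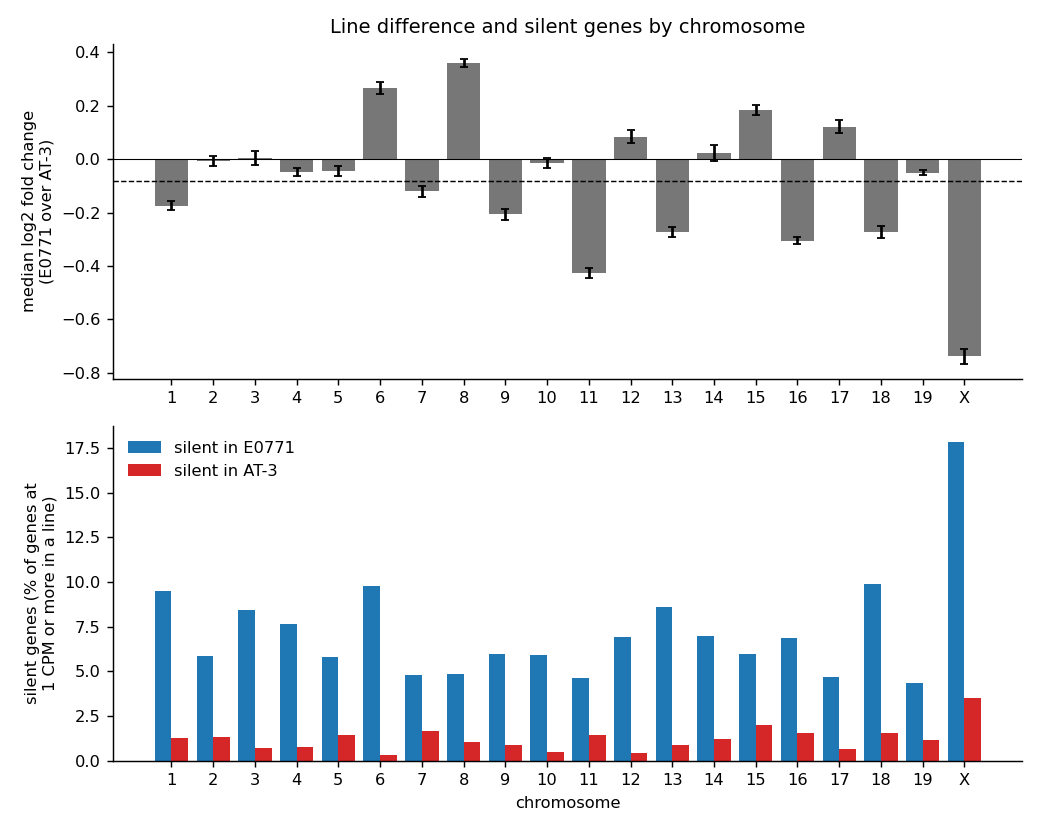
Upper panel: median log2 fold change (E0771 over AT-3) of the tested genes of each chromosome, with a dashed line at the median of all genes, -0.08. Error bars are the SD, over pairs of libraries that are not independent, of the median difference in log2 CPM. Lower panel: share of genes at 1 CPM or more in a line that were silent in E0771 (blue) or AT-3 (red); the X chromosome has the lowest median, -0.74, and the largest shares, 17.8% and 3.52%.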

How the data were processed

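The authors deposited a table of whole-number read counts per gene for all 36 libraries. Per the submitters' processing notes, STAR, featureCounts and GRCm38 were used; neither their versions nor the strand setting is given in the sources used here. The labels' protocols name Qiagen RNeasy for extraction and NuGen Universal Plus mRNA for library preparation. The 2 gene IDs of human form (6 counts) were left out. Symbols, positions and exon lengths came from GENCODE vM21; 50 IDs had no symbol (0.00091% of counts). Among counts from 1 to 10, 84.3% were even, as when both mates of a pair are counted, so halved counts were an alternative. The fold bounds and counting intervals were not recomputed on halved counts.

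Genes passing filterByExpr (minimum count 10, minimum total 15) were tested with edgeR 4.0.16 (R 4.3.3; TMM factors 0.993 to 1.005; robust quasi-likelihood; Benjamini-Hochberg over all 14073 genes). On simulated counts the test called 97% of 2-fold, 100% of 4-fold and 0.0732% of unchanged genes. The simulation changed 200 of the 14073 genes and gave all genes the common dispersion. In the data 79.5% of genes passed, so these rates do not carry over to them. Replicate numbers were not used to pair the libraries in the main fit. The 32 gene lists, the members and the tests were chosen with earlier results of these data known. Named genes were index genes, the 12 largest changes each way at 10 CPM or more, up to 8 members per list by change and 4 by level, the 12 highest silent genes per line, members of runs, and defining markers, with fewer printed.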

Additional observations from a re-analysis of the deposited data

How the results depend on the processing

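The count of genes differing between the lines was 10213 to 12037 over DESeq2 1.42.0, DESeq2 size factors, plain library totals, halved counts, all genes without filtering, genes at 1 CPM or more in 3 libraries and all 36 libraries, against 11181, and 10900 to 11289 when 1 library was left out in turn; the count at 2-fold or more was 4435 to 6264 and 5539 to 5617, against 5439. Deviations of same-numbered libraries correlated at 0.029, 0.0090 and 0.0075, against -0.032 to 0.022 for the other pairs, so no clear shared deviation was seen. This cannot show whether same-numbered libraries were handled together. The fit with a replicate block called 11019 genes, 5102 higher in E0771 and 5917 in AT-3. It called 1 epithelial gene and 2 mammary lineage genes higher in E0771 in place of 2 and 3. Genes silent in E0771 numbered 540 at 5 CPM in each AT-3 library, and 867 to 917 with 1 library left out. Genes silent in AT-3 numbered 65 at 5 CPM, 237 with 10 counts allowed, and 149 to 189 with 1 library left out. Runs of 2 or more silent genes numbered 134. Of 5844 values for 419 named genes under the alternatives, 27 lost and 8 gained the call, and 6 changed sign, none of them past the threshold: with 1 library left out in turn, Actb lay between -0.041 and 0.13, Anxa5 between -0.058 and 0.025, S100a10 between -0.026 and 0.092 and Tagln2 between -0.11 and 0.056. Of 896 list counts, 30 moved by over 1.5 times. Depth limits the folds of genes at 0 counts, whose fitted values depend on the prior count.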

Other observations

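Several genes of germ cells or pluripotent cells were detected in E0771 and not in AT-3. They were put together after their values were seen, with no test of the group. Genes of these cells were not listed as a set. Ybx2, another germ cell gene, went the other way, at 4.05 CPM in AT-3 and 0 CPM in E0771. Tex19.1, which protects germ cells from mobile elements, had 0 counts in AT-3 and 117, 112 and 118 CPM in E0771. Tex11, an X-linked gene of meiosis, had 0 counts and 57.4, 58.1 and 56.3 CPM. Tdrd1, a tudor protein of the piRNA pathway, had 0 counts and 46.8, 45.4 and 43.3 CPM, and Dppa4, a gene of pluripotent cells, had 0 counts and 37.8, 43.6 and 40.0 CPM.

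Imprinted genes, which are expressed from 1 parental copy, had 14 (60.9%) of 23 tested members higher in AT-3 and 5 (21.7%) in E0771, the latter being Phlda2, Slc22a18, Airn, Mkrn3 and Nespas (the last 3 named after their values were seen). The latter count was 3 with a minimum of 1 CPM in 3 libraries. Peg3 measured 186, 261 and 230.3 CPM in AT-3 and had 0 counts in E0771, as did Plagl1 (17.1 ± 2.43 CPM in AT-3) and Usp29 (3.85 ± 0.288 CPM). Phlda2 rose from 2.71 ± 0.633 to 32.0 ± 1.04 CPM (log2 fold change 3.57 ± 0.14).

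Of 19 annexin and S100 genes tested, 9 (47.4%) were higher in E0771, 5 (26.3%) in AT-3 and 5 did not pass. Anxa8, an annexin of squamous and basal epithelia, fell from 93.7 ± 5.45 CPM to 2 counts in all, and S100a6 rose from 368 ± 18.7 to 762 ± 50.1 CPM (1.05 ± 0.05).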
